A study of Homo sapiens with 4 samples.

Results

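The YY-15-treated SKOV3 library was compared with the YY-15-treated ES2 library, gene by gene, and each difference between the lines was set beside the same difference in the untreated pair. SKOV3 and ES2 are established human ovarian cancer cell lines. The genes described are the autosomal genes with an FPKM (fragment count divided by transcript length and by library size) of 1 or more in either treated library, 13550 of the 38558 genes in the deposited table. The same rule in the control pair gives 13512 genes, and 12981 genes meet it in both pairs. Of the 13550, 10193 (75.2%) reached FPKM 1 in both treated libraries, 2207 (16.3%) in SKOV3 only and 1150 (8.49%) in ES2 only. HCAR1, at 1.0003 FPKM in ES2, lay just inside the threshold, and CDK3, at 0.999 FPKM in SKOV3, lay just outside it.

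Cells of both lines were grown in 5A medium with 10% serum and treated with the compound YY-15, of which the labels give the code name alone, for 48 h. The headings of the deposited table give the dose as 4 µM. The controls were the same lines without any drug, and no time in culture is stated for them. All 4 groups held 1 library each, and the labels do not say how many cultures went into a library. Every value below is therefore a size, untested and unchecked by replicates. The 4 libraries held 62522202 to 67431058 estimated counts and 11343 to 12400 autosomal genes at FPKM 1 or more.

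The line ratio of a gene is log2((SKOV3 FPKM + 1)/(ES2 FPKM + 1)), positive where the gene was higher in SKOV3. A line difference is a ratio of at least 2 in size, which is 4-fold. It is said to grow or shrink where the size of the ratio was larger or smaller by 1 or more, which is 2-fold, in the YY-15 pair than in the control pair. A gene is said to move toward SKOV3 or toward ES2 where the ratio itself was higher or lower by 1 or more. The 2 pairs share no library. The change of a line ratio equals the YY-15 over control ratio within SKOV3 minus that within ES2, and these are called each line's own ratio. Brackets hold exact 95% intervals of the log2 ratio of library shares of estimated counts, without the added 1, so that for genes with low FPKM in ES2 or SKOV3 the interval lies farther from 0 than the line ratio. They cover counting error only.

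Several of the pathways that recur below have textbook roles. In the integrated stress response, kinases that sense amino acid shortage or misfolded proteins slow translation, and the transcription factor ATF4 then switches on amino acid synthesis, transport and stress genes. NF-kB is a transcription factor family that drives cytokine and chemokine genes such as IL6 and CXCL8. ERK, the last kinase of the RAS cascade, induces its own inhibitors, among them the dual-specificity phosphatases and the Sprouty proteins.

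The labels call both lines epithelial ovarian cancer cells. Of 12 epithelial markers in the table, 9 reached FPKM 1 in SKOV3 with YY-15 and 3 in ES2 with YY-15, which were the keratin genes KRT7, KRT8 and KRT18. CDH1 and EPCAM were listed at 0 in ES2, and in treated SKOV3 they stood at 0.547 and 1.15 FPKM. Of 8 mesenchymal markers, 6 reached FPKM 1 in SKOV3 and all 8 in ES2, and VIM stood at 754 and 1197 FPKM in the treated pair. The ovarian carcinoma genes PAX8 and FOLR1 reached FPKM 1 in SKOV3 and not in ES2, whereas 4 of the 7 markers of this kind, among them MSLN and MUC16, were under 1 FPKM in every library. CDH5, an endothelial cadherin gene, was at 16.3 FPKM in treated ES2, while the other endothelial markers PECAM1, VWF and KDR were under 1 FPKM in every library. Of 14 markers of leukocytes, vessels, stroma and blood, 2 reached FPKM 1 in each library, CD68 in all 4 with LUM in SKOV3 and CDH5 in ES2, and they summed to 11.1 and 17.2 FPKM in SKOV3 and 50.2 and 57.8 in ES2.

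The treated lines differed 4-fold at 1112 genes (8.21% of the 13550), with 748 higher in SKOV3 (5.52%) and 364 higher in ES2 (2.69%). In the control pair the same 13550 genes held 1077 line differences (7.95%), with 649 higher in SKOV3 (4.79%) and 428 higher in ES2 (3.16%). At 863 genes (6.37%) the difference was present in both pairs in the same direction, and no gene was 4-fold different in both pairs in opposite directions. A line difference was gained under YY-15 at 249 genes (1.84%), 199 of them higher in SKOV3 (1.47%) and 50 higher in ES2 (0.369%). It was lost at 214 genes (1.58%), of which 100 had been higher in SKOV3 (0.738%) and 114 in ES2 (0.841%). Many of these lay near the 4-fold limit in both pairs, and 65 of the gained (0.48% of all) and 42 of the lost genes (0.31%) also moved by 2-fold or more, as did 49 of those present in both pairs (0.362%). At the 2-fold limit the treated lines differed at 4351 genes (32.1%) and the controls at 3682 (27.2%), and at the 16-fold limit at 146 (1.08%) and 140 (1.03%).

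Line differences grew at 229 genes (1.69%) and shrank at 129 (0.952%), so that 64.0% of the changes in size were growth. That share was 74.5% with a pseudocount of 5 in place of 1, and 58.0% among genes at FPKM 1 or more in any of the 4 libraries, where 229 grew and 166 shrank, because the filter on the treated libraries alone leaves out genes that were high in a control library only. Of those that grew, 149 were higher in SKOV3 (1.1%) and 80 higher in ES2 (0.59%) under YY-15. Of those that shrank, 49 had been higher in SKOV3 (0.362%) and 80 in ES2 (0.59%). Genes sharing bases with a second measured gene of the same strand, whose values are uncertain, made up 30.6% of those that grew and 24.8% of those that shrank, against 11.7% of all 13550. The line ratio moved toward SKOV3 at 341 genes (2.52%) and toward ES2 at 205 (1.51%), which puts 62.5% of the moves toward SKOV3. That share was 73.6% (882 against 316) when each library was rescaled to a sum of 1000000, and 53.5% (280 against 243) when each was centred on its median. The ratio was higher under YY-15 by any amount at 7635 of the 13550 genes (56.3%) and lower at 5915 (43.7%). Rescaling raised the median line ratio of all genes under YY-15 from 0.13 to 0.34. The FPKM sums before it were 233277 to 268615, so it also raised every value while the added 1 stayed. It therefore acts in part as a smaller pseudocount, and the 2 effects were not separated. A pseudocount of 0.1 without rescaling put 67.6% of the moves toward SKOV3 (901 against 431).

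**Figure D1:**
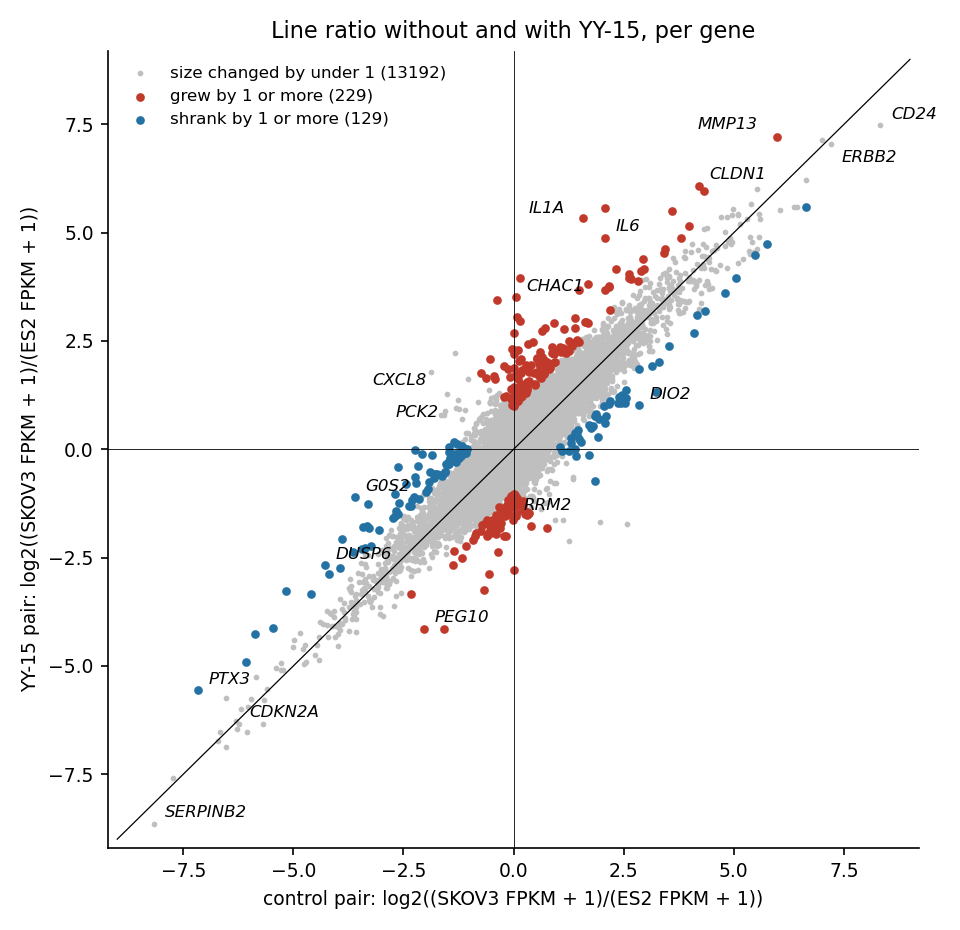
Each point is 1 of the 13550 genes, with the line ratio of the control pair on the x axis and of the YY-15 pair on the y axis, both as log2((SKOV3 FPKM + 1)/(ES2 FPKM + 1)). The 229 genes whose difference grew (red) lie farther from 0 vertically than horizontally, and the 129 that shrank (blue) lie closer to 0. On the diagonal the ratios of both pairs are equal. CD24 (8.33 in controls and 7.48 under YY-15) and SERPINB2 (-8.16 and -8.64) lie off it by less than 2-fold.

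Across the 13550 genes the ratios of both pairs had r = 0.920 and rho = 0.882, a description across genes that are not independent replicates. The ratio had a standard deviation across genes of 1.19 in the YY-15 pair and 1.16 in the control pair, and the change between pairs had one of 0.471. Shares of moves differed between genes sorted by their control ratio, and among all genes they were 2.52% toward SKOV3 and 1.51% toward ES2. Among 428 genes at least 4-fold higher in control ES2, 38 moved toward SKOV3 and 2 toward ES2. The shares were 7.98% and 0.532% at control ratios of -4 to -2, and 15.4% and 0% below -4. Among 649 genes at least 4-fold higher in control SKOV3, 23 moved toward SKOV3 and 28 toward ES2. There the shares were 3.57% each way at control ratios of 2 to 4, and 3.41% and 9.09% above 4. The control ratio enters both the sorting and the change, and its part in this pattern was not tested.

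The changes came mostly from the SKOV3 libraries. SKOV3's own ratio was larger in size than that of ES2 at 193 of the 229 genes that grew (84.3%, or 1.42% of all 13550), with a median size of 1.11 against 0.15, and at 111 of the 129 that shrank (86.0%, or 0.819% of all), with 1.05 against 0.22. SKOV3's own ratio was also the larger at 72.9% of the 863 genes 4-fold different in both pairs in the same direction. At the 214 genes that lost a line difference that share was 69.2%. Over all 13550 genes the standard deviation of the own ratio was 0.405 in SKOV3 and 0.236 in ES2, and its median size 0.21 and 0.118. The larger own ratios of SKOV3 were thus not particular to the genes that changed. The added 1 also holds the own ratio of ES2 near 0 where ES2 was low. Among 172 genes that changed in size, had an FPKM of 5 or more in some library and neither overlapped a neighbour nor carried a pseudogene, antisense or clone-style name, 5 had the larger own ratio in ES2: ESF1, ANKRD12, ID3, GOLGA8A and C6orf226. In bulk RNA, fewer cells of a kind and less RNA per cell cannot be told apart.

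**Figure D2:**
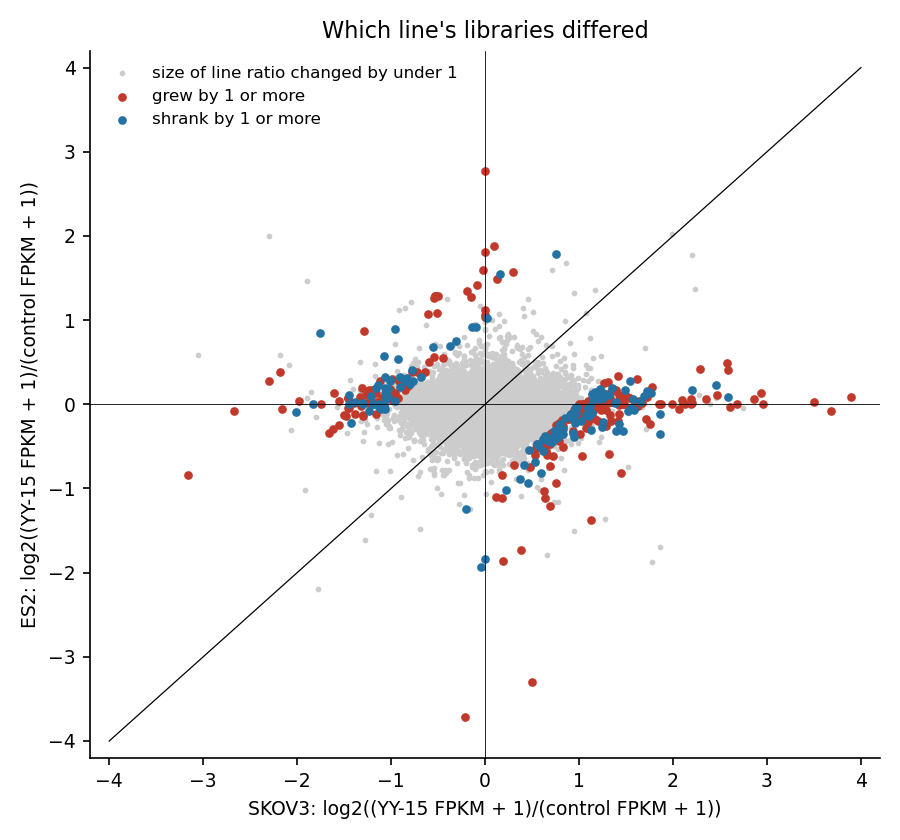
Each point is a gene, with the log2 ratio of YY-15 over control FPKM (1 added to each) within SKOV3 on the x axis and within ES2 on the y axis. Genes whose line difference grew (red) or shrank (blue) are spread along the x axis, with median sizes of 1.11 and 1.05 in SKOV3 against 0.15 and 0.22 in ES2, and points on the diagonal would leave the line ratio unchanged.

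At genes of the integrated stress response the line ratio lay toward SKOV3 under YY-15, whichever line was higher before. The 28 measured genes of the integrated stress response list had a median line ratio of -0.04 in the control pair, with 14 higher in each line and 9 at least 2-fold apart, and of 1.42 in the YY-15 pair, with 25 higher in SKOV3. All 28 had a higher ratio under YY-15, against 56.3% of all 13550 genes, and 20 moved by 2-fold or more, against 2.52%. Their own ratios had a median of 1.41 in SKOV3 and 0.05 in ES2. The difference grew at 12 of them and shrank at 3, against 1.69% and 0.952% of all genes.

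CHAC1, an enzyme that degrades glutathione, stood at 1.43 FPKM in untreated and 26.5 in treated SKOV3, against 1.35 and 1.402 in ES2. Pairs of levels are given in this order, control then YY-15, throughout. It was level between the untreated lines at 0.05 [-0.22 to 0.37] and differed by 3.51 [4.03 to 4.45] under YY-15. The gene (ENSG00000128965) spans 40952962 to 40956512 of chromosome 15, GRCh38, as do all positions below on that build. TRIB3, a pseudokinase that restrains ATF4 and AKT (ENSG00000101255, chromosome 20, 362835 to 397559), was at 8.71 and 57.9 FPKM in SKOV3 and 13.1 and 12.8 in ES2. Its line ratio passed from -0.53 to 2.09 [2.13 to 2.24]. SESN2, a stress-induced inhibitor of growth signalling, passed from -0.13 to 1.85, and the C/EBP family gene CEBPG from 0.54 to 2.08.

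GDF15, a secreted stress factor, and DDIT3, which encodes CHOP, followed the same course, but each gene contains a microRNA gene in its span and its value is uncertain. GDF15 was at 0.738 and 24.8 FPKM in SKOV3 and 1.25 and 1.39 in ES2, and its line ratio passed from -0.37 to 3.44. DDIT3 was at 5.12 and 46.0 FPKM in SKOV3 and 4.51 and 5.03 in ES2, a passage from 0.15 to 2.96. The control libraries of both lines lay close together for these genes, and the SKOV3 YY-15 library stood alone.

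Stress genes already higher in SKOV3 became more so. DDIT4, an inhibitor of the growth kinase mTOR (ENSG00000168209, chromosome 10, 72273919 to 72276036), was at 90.4 and 299 FPKM in SKOV3 and 6.52 and 5.65 in ES2. Its line ratio was 3.60 [3.69 to 3.89] in controls and 5.50 [5.63 to 5.83] under YY-15. ATF3, a stress-induced repressor, passed from 0.43 to 2.48 and NUPR1, a small chromatin-associated stress protein, from 0.64 to 2.73. SLC7A11, the cystine importer, passed from 2.29 to 3.28 and SLC7A5, an importer of large amino acids that overlaps a second measured gene, from 1.64 to 2.58.

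Of the 14 stress genes that were higher in control ES2, 11 were higher in SKOV3 under YY-15 and 3 remained higher in ES2 by a smaller ratio. PHGDH, the first enzyme of serine synthesis, was at 1.45 and 4.86 FPKM in SKOV3 and 36.5 and 38.4 in ES2, so its line ratio went from -3.93 to -2.75. The glycyl-tRNA synthetase gene GARS1 went from -1.47 to -0.33 and the secreted factor STC2 from -3.07 to -1.86. ASNS, asparagine synthetase, whose span overlaps a second measured gene and whose value is uncertain, crossed over, at 4.34 and 24.9 FPKM in SKOV3 and 11.6 and 12.6 in ES2, a passage from -1.24 to 0.93. PPP1R15A, which encodes GADD34, crossed from -1.58 to 0.80.

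Proximal promoters are shown for 4 genes that ended in different classes although all 4 moved toward SKOV3. CHAC1 and IL6 grew, CXCL8 reversed and ICAM1, the adhesion receptor gene, shrank. The 4 were chosen with their values known, from windows that held a motif, and each was marked for that motif alone. The sequences are the 250 bases before the RefSeq start site on GRCh38.p14, with a motif match in capitals. In CHAC1 the motif was TGATGNAA, a form of the element bound by ATF4 and C/EBP pairs, found on the opposite strand. In the others it was GGNNTTTCC, a form of the NF-kB site, found on the plus strand in IL6 and CXCL8 and on the opposite strand in ICAM1. The matches begin 209, 72, 91 and 186 bases before the start site in the order shown.
CHAC1, chr15:40953221-40953470, plus strand: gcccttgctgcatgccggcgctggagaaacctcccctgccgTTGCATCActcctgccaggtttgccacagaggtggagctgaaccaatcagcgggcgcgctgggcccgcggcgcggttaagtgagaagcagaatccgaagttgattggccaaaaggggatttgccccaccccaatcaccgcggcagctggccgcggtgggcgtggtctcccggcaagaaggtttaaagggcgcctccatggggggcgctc
IL6, chr7:22726950-22727199, plus strand: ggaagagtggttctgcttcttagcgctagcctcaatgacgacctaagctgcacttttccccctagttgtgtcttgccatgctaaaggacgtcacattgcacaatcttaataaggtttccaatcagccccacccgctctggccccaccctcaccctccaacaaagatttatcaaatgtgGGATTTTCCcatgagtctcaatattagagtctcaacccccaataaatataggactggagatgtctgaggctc
CXCL8, chr4:73740319-73740568, plus strand: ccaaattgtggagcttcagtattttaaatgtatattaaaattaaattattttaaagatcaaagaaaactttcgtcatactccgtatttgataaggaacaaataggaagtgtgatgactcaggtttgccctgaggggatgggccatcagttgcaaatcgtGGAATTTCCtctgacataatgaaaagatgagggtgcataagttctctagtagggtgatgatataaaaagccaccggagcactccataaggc
ICAM1, chr19:10270870-10271119, plus strand: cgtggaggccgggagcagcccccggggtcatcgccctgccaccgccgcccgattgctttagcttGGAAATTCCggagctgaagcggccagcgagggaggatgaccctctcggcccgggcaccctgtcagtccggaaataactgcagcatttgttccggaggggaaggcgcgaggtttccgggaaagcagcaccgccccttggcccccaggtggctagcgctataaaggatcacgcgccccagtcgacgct
Windows for the motif counts ran from 250 bases before to 50 bases after each start site, and both strands were searched. TGATGNAA was present in 1270 of 35116 RefSeq windows (3.62%). Among genes eligible to be named that had a window, it was present in 225 of 8555 (2.63%) and in 15 of the 135 that moved toward SKOV3 (11.1%). GGNNTTTCC was present in 2198 of 35116 windows (6.26%), in 754 of those 8555 genes (8.81%) and in 23 of those 135 (17.0%). Both motifs were present in 64 windows, with overlapping matches in 4. A match is a description of the sequence, not a bound site.

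Cytokine and NF-kB genes were mixed in controls, with 14 higher in SKOV3 and 9 in ES2, and under YY-15 17 were higher in SKOV3 and 6 in ES2. The 23 measured genes had a median line ratio of 0.53 in controls and 1.37 under YY-15. Of these, 22 had a higher ratio under YY-15, against 56.3% of all genes, and 12 moved by 2-fold or more, against 2.52%. The difference grew at 7 and shrank at 2, against 1.69% and 0.952% of all genes. CCL2, a monocyte chemokine, was the 1 with a lower ratio, from -0.98 to -1.22. The own ratios had medians of 1.07 in SKOV3 and 0.00 in ES2.

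IL1A, which encodes interleukin-1 alpha (ENSG00000115008, chromosome 2, 112773925 to 112784493), stood at 4.53 and 69.9 FPKM in SKOV3 without and with YY-15, and at 0.849 and 0.742 in ES2. Its line ratio was 1.58 [2.13 to 2.71] in controls and 5.35 [6.28 to 6.85] under YY-15, the largest growth among the genes eligible to be named. IL6 (ENSG00000136244, chromosome 7, 22725884 to 22732002) was at 3.43 and 31.3 FPKM in SKOV3 and at 0.0504 and 0.0930 in ES2, and its line ratio passed from 2.08 to 4.88 [7.81 to 8.89]. Both genes were higher in SKOV3 before treatment and ES2 stayed low. The chemokine gene CCL20 passed from 1.14 to 2.78, SOD2, a mitochondrial superoxide dismutase, from 2.61 to 4.05, and RELB, an NF-kB subunit, from 0.57 to 1.98.

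IL1B, which encodes interleukin-1 beta and neighbours IL1A (ENSG00000125538, chromosome 2, 112829751 to 112836816), went the other way in size. It stood at 1.76 and 11.7 FPKM in SKOV3 and 26.2 and 29.7 in ES2, so the line ratio shrank from -3.30 [-4.04 to -3.74] to -1.27 [-1.40 to -1.26]. ICAM1 stood at 1.33 and 5.80 FPKM in SKOV3 and 28.3 and 34.4 in ES2, and its ratio shrank from -3.65 to -2.38. CXCL5, a neutrophil chemokine, was near 0 in SKOV3, at 0.0230 and 0.151 FPKM in SKOV3 and 216 and 220 in ES2, a line ratio of -7.73 [-14.50 to -11.65] and -7.59 [-11.10 to -9.91]. The added 1 holds that ratio nearly level, while the intervals without it do not overlap and place the gap closer to 0 under YY-15. SKOV3 was thus higher with YY-15 at both interleukin-1 genes, which widened the gap at IL1A and narrowed it at IL1B.

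Only 9 genes (0.0664%) reversed, with a ratio of at least 1 in size in both pairs and opposite signs, and 2 of them have a protein-coding transcript, CXCL8 and PCK2. The other 7 table entries were RPL14P1, WASH2P, HERC2P3, RNU6-26P, VIM-AS1, GTF2IP1 and the unnamed ENSG00000272540, which include pseudogenes, a small RNA and an antisense gene. CXCL8, which encodes interleukin-8 (ENSG00000169429, chromosome 4, 73740519 to 73743715), was at 35.4 and 243 FPKM in SKOV3 and 103 and 99.5 in ES2. Its line ratio was -1.51 [-1.58 to -1.50] in controls and 1.28 [1.27 to 1.32] under YY-15. PCK2, the mitochondrial phosphoenolpyruvate carboxykinase (ENSG00000100889, chromosome 14, 24094053 to 24104125), was at 3.29 and 21.6 FPKM in SKOV3 and 9.202 and 9.27 in ES2, a passage from -1.25 to 1.14. In both genes the ES2 libraries stood between the SKOV3 libraries.

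**Figure D3:**
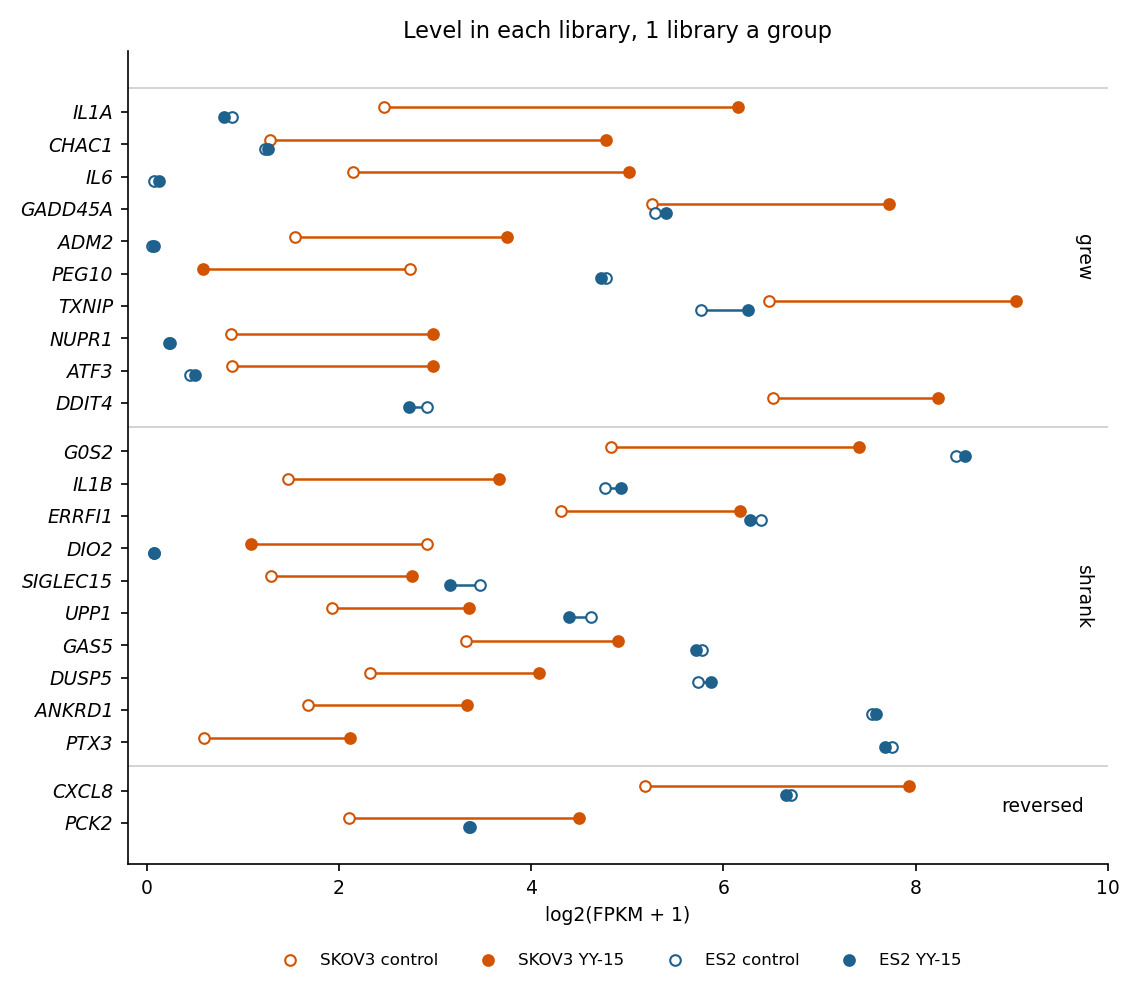
Levels as log2(FPKM + 1) in each of the 4 libraries, open circles for control and filled circles for YY-15, for the 10 named genes whose line difference grew most, the 10 that shrank most and the 2 coding genes that reversed. The orange SKOV3 segments are long and the blue ES2 segments short throughout, and for CXCL8 and PCK2 the SKOV3 segment spans the ES2 points.

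At genes of the ERK feedback loop the treated lines were closer on balance, with a median change in the size of the ratio of -0.54. ES2 carried 15 of the 16 at a higher level in controls, and 11 under YY-15. The median line ratio was -1.81 in controls and -0.60 under YY-15, and the number at least 4-fold higher in ES2 fell from 6 to 2. The ratio was higher under YY-15 at 15 of 16, against 56.3% of all genes, and by 2-fold or more at 7, against 2.52%. The difference shrank at 6 and grew at 1, against 0.952% and 1.69% of all genes.

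DUSP6, the ERK phosphatase (ENSG00000139318, chromosome 12, 89347235 to 89352501), stood at 1.83 and 7.28 FPKM in SKOV3 and 53.7 and 52.1 in ES2. Its line ratio shrank from -4.27 [-5.00 to -4.75] to -2.68 [-2.90 to -2.76]. DUSP5, a nuclear ERK phosphatase (ENSG00000138166, chromosome 10, 110497907 to 110511533), was at 3.99 and 15.9 FPKM in SKOV3 and 52.2 and 57.5 in ES2, a passage from -3.41 to -1.79. The Sprouty gene SPRY4 went from -3.28 to -1.82, and the ETS factor genes ETV4 and ETV5 from -1.89 to -0.53 and from -2.23 to -0.63. All 5 remained higher in ES2.

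ERRFI1, which encodes MIG6, a feedback inhibitor of the EGF receptor (ENSG00000116285, chromosome 1, 8004404 to 8026309), came to parity, at 18.8 and 71.3 FPKM in SKOV3 and 82.8 and 76.4 in ES2. The ratio was -2.08 [-2.18 to -2.09] in controls and -0.10 [-0.12 to -0.07] under YY-15. PHLDA1, a gene of the same loop, was the 1 list member whose difference grew, from -0.44 to 1.69, at 44.2 and 206 FPKM in SKOV3 and 60.2 and 62.9 in ES2. EPHA4, an ephrin receptor gene, was the 1 member with a lower ratio under YY-15, from -0.39 to -0.999. ERBB2, the receptor gene that SKOV3 carries in amplified form, stayed at 152 and 143 FPKM in SKOV3 and 0.0317 and 0.0824 in ES2, with a line ratio of 7.21 and 7.05, and it contains a microRNA gene.

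Several other gaps in favour of ES2 narrowed. G0S2, an inhibitor of the lipase ATGL (ENSG00000123689, chromosome 1, 209675412 to 209676390), shrank most of the genes eligible to be named, at 27.4 and 169 FPKM in SKOV3 and 342 and 365 in ES2, a passage from -3.60 [-3.72 to -3.57] to -1.10 [-1.13 to -1.07]. SIGLEC15, a sialic acid-binding receptor gene, went from -2.17 to -0.40 and UPP1, uridine phosphorylase, from -2.70 to -1.04. GAS5, a non-coding host gene of small nucleolar RNAs, went from -2.45 to -0.81. ANKRD1, a target of the YAP coactivator, stood at 2.197 and 9.05 FPKM in SKOV3 and 187 and 191 in ES2, a ratio of -5.87 and -4.25, and PTX3, a secreted pentraxin, at 0.509 and 3.33 in SKOV3 and 215 and 204 in ES2, a ratio of -7.16 and -5.56. For both genes ES2 remained more than 16-fold higher on this scale.

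Genes of DNA replication went from even to higher in ES2. The 29 measured genes had a median line ratio of 0.02 in controls, with 15 higher in SKOV3, and of -0.99 under YY-15, with 3 higher in SKOV3. The ratio was lower at 28 of 29, against 43.7% of all genes, and by 2-fold or more at 14, against 1.51%. The difference grew at 10 and shrank at 1, against 1.69% and 0.952% of all genes. Median own ratios were -0.99 in SKOV3 and -0.04 in ES2.

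RRM2, a subunit of ribonucleotide reductase (ENSG00000171848, chromosome 2, 10120698 to 10211725), was at 24.1 and 8.09 FPKM in SKOV3 and 24.2 and 25.6 in ES2. The lines were level in controls, at -0.01 [-0.04 to 0.02], and differed by -1.55 [-1.70 to -1.61] under YY-15. TYMS, thymidylate synthase (ENSG00000176890, chromosome 18, 657653 to 673578), was at 69.3 and 28.9 FPKM in SKOV3 and 106 and 119 in ES2, and its ratio reached the 4-fold limit, from -0.60 to -2.01. The helicase subunit gene MCM5 passed from 0.30 to -1.45, MCM4 from -0.28 to -1.70, and PCNA, the sliding clamp, from -0.13 to -1.50.

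TK1, thymidine kinase, was the replication gene whose difference shrank, and it had the highest line ratio of the list in controls. It was at 102 and 36.8 FPKM in SKOV3 and 37.9 and 41.1 in ES2, and its ratio went from 1.41 to -0.15. CCNE1, cyclin E1, was the 1 gene of the list with a higher ratio under YY-15, from 0.40 to 0.60. The 25 mitotic genes followed with a smaller step, from a median of -0.29 to -0.80. Of these, 23 had a lower ratio (43.7% of all genes), 3 of them by 2-fold or more (1.51% of all genes). KIF20A, a cytokinesis motor, passed from 0.26 to -1.49, and BIRC5, which encodes survivin, changed sides from 0.60 to -0.60. CDKN1A, the p21 inhibitor of cyclin-dependent kinases, moved toward SKOV3, from 0.60 to 2.26, at 4.51 and 16.5 FPKM in SKOV3 and 2.64 and 2.67 in ES2.

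Tubulin genes lost much of their excess in SKOV3. In controls 11 of the 12 were higher in SKOV3, and under YY-15 5 were. The median line ratio went from 0.48 to -0.46, all 12 had a lower ratio, and 8 moved by 2-fold or more, against 43.7% and 1.51% of all genes. TUBA4A was at 47.9 and 24.1 FPKM in SKOV3 and 0.0902 and 0.121 in ES2, so that its difference shrank from 5.49 to 4.49 without closing. The abundant TUBA1B was at 682 and 272 FPKM in SKOV3 and 505 and 585 in ES2, a passage from 0.43 to -1.10. TUBB4B passed from 0.40 to -1.32. Tubulin genes are near-identical copies in part, so the split of reads between them is uncertain.

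Proteasome subunit genes changed sides by small steps in the same direction. Of the 31, 22 were higher in SKOV3 in controls and 6 under YY-15, and the median went from 0.28 to -0.33. All 31 had a lower ratio, against 43.7% of all genes. Only PSMB3 moved by 2-fold or more (1.51% of all genes), from 0.28 to -0.78. The heat shock list had a median of -0.71 in controls and -1.24 under YY-15, and 17 of 19 genes had a lower ratio, again against 43.7%. HSP90AA1, an inducible HSP90 gene, was at 342 and 107 FPKM in SKOV3 and 389 and 308 in ES2, a passage from -0.18 to -1.51. HSPA8, the constitutive Hsc70 gene, passed from -0.35 to -2.36, but it contains a measured small nucleolar RNA gene and its value is uncertain. HSPA1A and HSPA1B, near-identical copies, passed from 0.72 to -1.25 and from 0.62 to -1.38.

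Nuclear genes of the respiratory chain leaned further toward ES2, from a median of -0.34 to -0.68. Of the 29, 28 had a lower ratio (43.7% of all genes), none of them by 2-fold (1.51% of all genes). Cytosolic ribosomal protein genes kept their difference. All 34 were higher in ES2 in both pairs, with medians of -1.09 and -1.05. Glycolysis and hypoxia genes split. PGAM1, a glycolytic mutase, passed from -0.41 to -1.94, while VEGFA, the angiogenic factor, passed from 2.16 to 3.77 and TXNIP, an inhibitor of glucose uptake, from 0.71 to 2.80, at 88.0 and 529 FPKM in SKOV3 and 53.5 and 75.3 in ES2.

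**Figure D4:**
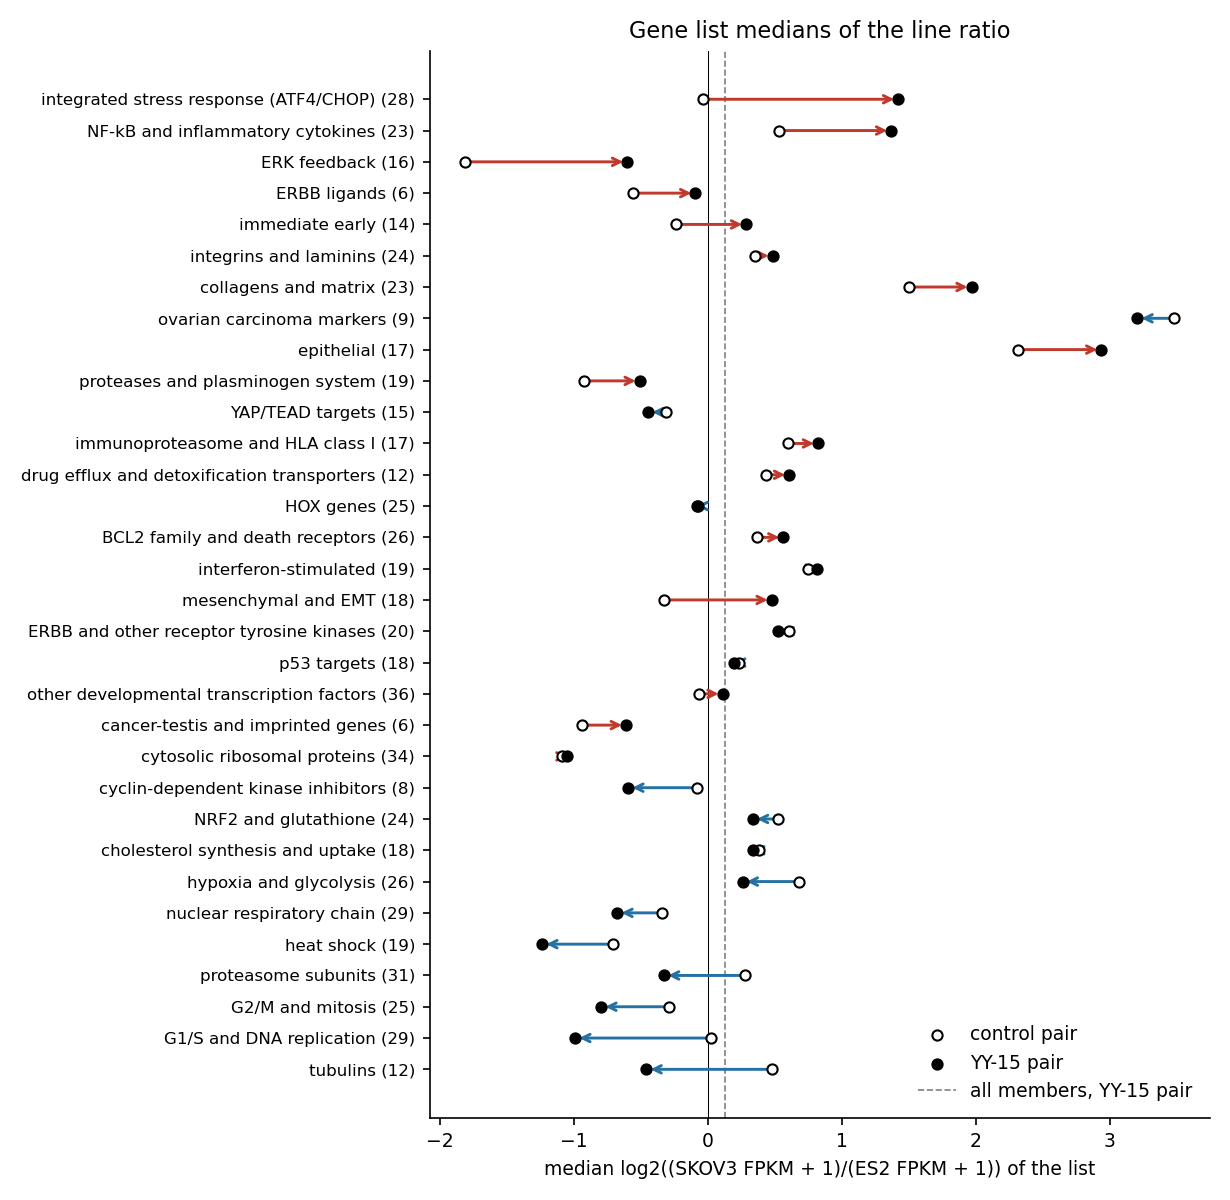
Median line ratio of each gene list with at least 5 measured genes (number in brackets), in the control pair (open) and the YY-15 pair (filled), sorted by the median change of its genes, with arrows in red toward SKOV3 and in blue toward ES2. The integrated stress response list runs from -0.04 to 1.42 and the replication list from 0.02 to -0.99, while the dashed line marks the median of all 13550 genes under YY-15, 0.13.

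Of the 16 named genes with the widest line ratios under YY-15, 8 on each side, 13 had a ratio within 2-fold of that in controls on the FPKM + 1 scale, which holds ratios nearly level for genes close to 0 in 1 line, while CLDN1 and MMP13 grew and APOL1 shrank. CD24, a surface glycoprotein of ovarian carcinoma cells (ENSG00000272398, chromosome 6, 106969831 to 106975627), had the highest line ratio under YY-15, 7.48 [8.42 to 8.85], against 8.33 in controls, at 551 and 320 FPKM in SKOV3 and 0.717 and 0.798 in ES2. SERPINB2, the plasminogen activator inhibitor gene of the ov-serpin family (ENSG00000197632, chromosome 18, 63871692 to 63903879), had the lowest, -8.64 [-13.18 to -11.62], against -8.16, at 0 and 0.0812 FPKM in SKOV3 and 285 and 430 in ES2. The de-ubiquitinase gene UCHL1 stood at -6.54 and -6.87, and FLNC, filamin C, at -6.71 and -6.74. CDKN2A, the p16 gene, was listed at 0 in both SKOV3 libraries and stood at 74.9 and 79.7 FPKM in ES2, which makes it at least 6838-fold higher in treated ES2 by a floor of 3 counts in the SKOV3 library.

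Other genes already apart in controls were wider apart under YY-15. CLDN1, a tight junction claudin (ENSG00000163347, chromosome 3, 190305707 to 190322446), was at 29.1 and 146 FPKM in SKOV3 and 0.628 and 1.17 in ES2, and its line ratio grew from 4.21 [5.30 to 5.77] to 6.09 [6.81 to 7.14]. LCN2, a secreted lipocalin, was at 3.98 and 17.0 FPKM in SKOV3 and listed at 0 in both ES2 libraries, at least 144-fold and at least 642-fold higher in SKOV3 by the same floor in ES2. MMP13, a collagenase, was at 66.5 and 147 FPKM in SKOV3 and 0.0731 and 0 in ES2. Its neighbour in function MMP1 lay on the other side, at 58.5 and 151 FPKM in SKOV3 and 4022 and 4584 in ES2, and its difference shrank from -6.08 to -4.92. FN1, fibronectin, passed from 0.30 to 1.48.

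The epithelial list did not move as a body. Its 17 measured genes had a median of 2.32 in controls and 2.94 under YY-15, but the median change of its genes was 0.27, and -0.07 among those at FPKM 5 or more. CLDN1 and LCN2 grew, while KRT8 shrank from 4.17 to 3.09, at 247 and 116 FPKM in SKOV3 and 12.7 in both ES2 libraries.

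Several lists stayed near where they were while single members left them. The 18 targets of p53, the stress-activated tumour suppressor, had a median line ratio of 0.23 in controls and 0.20 under YY-15. Their median change of 0.04 turned to -0.02 when libraries were centred and to -0.03 with the trend on GC content and length removed. Yet 3 of them grew toward SKOV3, against 1.1% of all genes. GADD45A, a stress gene of growth arrest that ATF4 also induces (ENSG00000116717, chromosome 1, 67685201 to 67688334), was at 37.2 and 211 FPKM in SKOV3 and 38.2 and 41.3 in ES2, so that lines level at -0.04 differed by 2.32 [2.32 to 2.40]. CDKN1A is described above, and PLK3, a polo-like kinase, passed from 0.14 to 1.24. BBC3 fell just short of the 2-fold limit with a change of 0.99996, from 0.48 to 1.48. CDKN2C, which encodes the cyclin-dependent kinase inhibitor p18, moved the other way, from 0.43 to -1.16, at 13.6 and 4.52 FPKM in SKOV3 and 9.83 and 11.3 in ES2.

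Among 26 genes of the BCL2 family and death receptors, 2 moved toward SKOV3 and none toward ES2, against 2.52% and 1.51% of all genes, with medians of 0.36 and 0.56. PMAIP1, which encodes the pro-apoptotic NOXA, grew from 0.09 to 1.63, and BCL2A1, an anti-apoptotic relative that ES2 carried at a higher level, shrank from -4.60 to -3.34. BBC3, also in this list, is not counted because its change of 0.99996 lay just under the limit. Of 24 integrin and laminin genes, 22 had a higher ratio under YY-15, against 56.3% of all genes, and the median went from 0.35 to 0.48. The integrin beta 3 gene ITGB3 grew from 0.88 to 2.22, at 23.4 and 54.1 FPKM in SKOV3 and 12.3 and 10.8 in ES2, and LAMB3, a laminin chain of basement membranes, crossed from -1.04 to 0.39. Both therefore moved toward SKOV3, and ES2 was slightly lower at each.

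All 6 measured ligands of the ERBB receptors had a higher ratio under YY-15, against 56.3% of all genes, none of them by 2-fold (2.52% of all genes). Their median went from -0.56 to -0.09, or to 0.12 with no filter on FPKM. Of the 14 immediate early genes, 11 had a higher ratio, against 56.3% of all genes, and the median went from -0.24 to 0.29, or to -0.04 with scaled counts and -0.09 with no filter. KLF4, a Krüppel-like factor, led them, from -0.21 to 1.92, at 1.78 and 10.6 FPKM in SKOV3 and 2.21 and 2.09 in ES2. Among receptor tyrosine kinases the KIT difference shrank from 2.06 to 1.003, and the collagen receptor DDR2 from -3.38 to -2.28.

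Lineage, matrix and metabolic lists differed in how far they moved. The 25 HOX genes, which pattern the body axis, had medians of -0.07 and -0.08, the second being 1.39 at FPKM 5 or more, 0.10 when rescaled and 0.17 without overlapping genes, and HOXB9, which overlaps a second measured gene, grew from 0.69 to 1.76. The 23 collagen and matrix genes had medians of 1.504 and 1.97 and none moved by 2-fold, against 4.03% of all genes. The 18 mesenchymal genes had medians of -0.33 and 0.48, the second being -0.07 without overlapping genes, while their median change was 0.07. FN1 and ZEB1 were the 2 of them that moved toward SKOV3 by 2-fold or more, against 2.52% of all genes. The 24 genes of NRF2 and glutathione metabolism had medians of 0.52 and 0.34, and the 18 of cholesterol synthesis and uptake 0.38 and 0.34. Neither list held a gene that moved by 2-fold, against the same 4.03%, though SLC7A11 was close to the limit at 0.99. At that share few such genes would be found in lists of this length. The drug exporter gene ABCC3 grew from 2.66 to 3.94, at 9.36 and 21.6 FPKM in SKOV3 and 0.638 and 0.476 in ES2.

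PEG10, an imprinted gene derived from a retrotransposon (ENSG00000242265, chromosome 7, 94656325 to 94669695), showed the largest growth toward ES2 among the genes eligible to be named. It was at 5.66 and 0.496 FPKM in SKOV3 and 26.5 and 25.4 in ES2, and its ratio grew from -2.04 [-2.28 to -2.16] to -4.14 [-5.87 to -5.48]. HRH1, the histamine H1 receptor gene, crossed from 0.77 to -1.82, at 5.91 and 0.0860 FPKM in SKOV3 and 3.06 and 2.84 in ES2. DIO2, which activates thyroid hormone, lost its excess in SKOV3 in part, at 6.54 and 1.12 FPKM there and 0.0503 and 0.0511 in ES2, a ratio of 2.84 and 1.01.

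Changes that came from ES2 were few. ESF1, a nucleolar protein of ribosome assembly, was at 19.9 and 9.92 FPKM in ES2 and 6.604 and 9.43 in SKOV3, so that its ratio shrank from -1.46 to -0.07. ID3, an inhibitor of helix-loop-helix transcription factors, was at 16.2 and 28.0 FPKM in ES2 and 61.8 and 49.8 in SKOV3, and its ratio shrank from 1.87 to 0.81. ZEB1, a repressor of epithelial genes, was at 9.70 and 4.77 FPKM in ES2 and 5.38 and 8.67 in SKOV3, which turned its ratio from -0.74 to 0.74 with no change in size. Across 13139 genes with a known GC content, ES2's own ratio had a rank correlation of 0.409 with GC content and that of SKOV3 one of 0.009. The median change of the line ratio was 0.25 in the lowest of 10 GC bins and 0.0057 in the highest. With the trend on GC content and transcript length removed, the median change of all genes was -0.0075, against 0.061 before. Moves of 2-fold or more were then 276 toward SKOV3 and 216 toward ES2, or 56.1% toward SKOV3, against 341 and 205, or 62.5%. The part of GC content in the changes that came from ES2 was not tested gene by gene.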

How the data were processed

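Per the labels' protocols, poly(A) RNA was sequenced from both ends after dUTP marking of the second strand, with no molecular identifiers described. Their fields disagree on the Illumina sequencer used. The mouse build mm10 is named per the submitters' processing notes, beside HISAT2 2.2.1, StringTie 2.1.6, cutadapt 1.9, edgeR and DESeq2, with no role stated for any. All 38558 identifiers are human, and 35536 of the 35576 found in GENCODE 29 (99.9%) overlap the same gene there, so positions are printed on GRCh38.

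1 FPKM and 1 count column per library stand in the authors' table, per the file headers. The deposited counts are treated as estimated counts, since each library lists 210 to 229 genes whose single count goes with an FPKM below 0.001. All 8 value columns entered the work. The labels do not say if the counter read the strand, so a gene and its antisense partner may share reads. PCR copies are not independent molecules, so intervals and floors cover counting error only.

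Line ratios, counts of genes past a size and list medians were computed in Python 3.11.15 with pandas 2.3.3, numpy 2.4.6, scipy 1.17.1 and statsmodels 0.14.6, and checked on simulated data. With 1 library a side no test was made. The members, the 33 gene lists and the rule for named genes were chosen with earlier results of these data known. The rule took genes with a symbol and no overlap, pseudogene or read-through name, at FPKM 5 or more: the 8 highest and 8 lowest ratios under YY-15, the 10 that grew and 10 that shrank most, up to 8 reversed, 6 gained and 6 lost, and up to 6 per list, where FPKM 1 was enough. GDF15, DDIT3, HSPA8, ERBB2, HRH1, ICAM1, ESF1, ANKRD12, GOLGA8A, C6orf226, the non-coding reversed genes, markers and other list members were named after their values were seen. Promoter sequences and start sites are from RefSeq tables on GRCh38.p14, which held 8555 of 10539 genes eligible to be named. Alternatives changed the pseudocount, filter, scaling, gene set and size limits. Removal of the trend on GC content and transcript length by local regression, span 0.3, was added after seeing the data.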

Additional observations from a re-analysis of the deposited data

Results flagged for a closer look

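At 19 of the 206 genes named by the rule the own ratios of the lines went opposite ways, each by 0.25 or more on the log2 scale. The YY-15 library was thus higher than its control in 1 line and lower in the other. Genes named after their values were seen were not examined. Among those, ESF1 (own ratios of 0.46 in SKOV3 and -0.93 in ES2), ANKRD12 (0.53 and -0.61) and VIM-AS1 (-2.18 and 0.58) also met this limit. With 1 library a group the difference between the lines was not tested. Values are the change of the line ratio, YY-15 pair minus control pair.

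SKOV3 was higher and ES2 lower with YY-15 at ABCA1, a cholesterol exporter (0.76), BCL2A1, an anti-apoptotic BCL2 relative (1.27), the collagen gene COL6A3 (0.81) and DDR2, a collagen receptor kinase (1.10). The same held for the interferon-induced IFIT3 (0.68), the pro-apoptotic PMAIP1 (1.54), SIGLEC15 (1.78), SLC7A11 (0.99) and ZEB1 (1.49). PMAIP1, which encodes NOXA, stood at 23.8 and 59.4 FPKM in SKOV3 and 22.3 and 18.6 in ES2.

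SKOV3 was lower and ES2 higher at the lipid-binding APOL1 (-1.04), the BCL2 family gene BOK (-0.88), carbonyl reductase CBR1 (-0.77), the glutathione transferase GSTP1 (-0.74), ID1 (-1.19) and ID3 (-1.06). The proteasome subunit PSMB6 (-0.79) and the tubulin genes TUBA1A (-1.23), TUBB2A (-1.39) and TUBB4B (-1.72) did likewise. TUBB2A stood at 24.8 and 11.3 FPKM in SKOV3 and 3.71 and 4.88 in ES2.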

How the results depend on the processing

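No paired analysis was possible because each group held 1 library, so that the groups share a single replicate number. No library could be left out, for the same reason. Of 89 recomputed counts, 44 stayed within 1.5 times the main count, 45 did not, and none could change sign. Counts are given in the order higher in SKOV3, higher in ES2, grew, shrank, gained, lost and reversed, where they moved past 1.5 times. With a pseudocount of 0.1 they were 1776, 882, 673, 371, 571 and, reversed, 35. With a pseudocount of 5 they were 182, 122, 82, 28, 81, 52 and 2. Rescaled to a sum of 1000000, with the added 1 unchanged, they were 1771, 658, 613, 301, 592 and, reversed, 29. With estimated counts scaled to 1000000 they were 1591, 698, 479, 298, 492, 371 and 19. At FPKM 5 or more, 151 grew, 78 shrank and 100 were lost. In protein-coding genes 149 grew, 85 shrank and 2 reversed, and without overlapping and read-through genes 5 reversed. At a 2-fold line difference 2638 were higher in SKOV3, 1713 higher in ES2, 1317 gained and 648 lost, and at 8-fold 270, 140, 93 and 62. At a 1.5-fold change 1089 grew and 597 shrank, and at a 3-fold change 49 and 19. The cause was not tested where it does not follow from the limit itself.

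The median change kept its sign under all alternatives for the lists of the integrated stress response (1.03 to 1.59), NF-kB (0.77 to 1.29), ERK feedback (0.63 to 1.22), replication (-1.07 to -0.80), tubulins (-1.22 to -1.05), proteasome (-0.66 to -0.46), heat shock (-0.60 to -0.42) and respiratory chain (-0.44 to -0.31). That of ribosomal proteins was 0.04 when rescaled against -0.05. Of 4930 recomputed values of named genes, 1471 moved by more than their counting interval and none that passed the size limit changed sign.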

Other observations

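Neighbouring genes around 3 genes of known copy number or extreme ratio were looked up after their values were seen, within 500 kb on either side. Around ERBB2 on chromosome 17, 23 measured coding genes had a median line ratio of 1.22 in controls and 1.25 under YY-15, against 0.08 and 0.13 over all 13550 genes. Of these, 9 were at least 4-fold higher in SKOV3 under YY-15 and 6 in controls, against 5.55% and 4.86% of all coding genes described. None was 4-fold higher in ES2 under YY-15, but at the 2.63% of all coding genes few or none would be found among 23. MIEN1, a small membrane-anchored protein gene, stood at 95.5 and 90.0 FPKM in SKOV3 and 4.61 and 5.95 in ES2, and PGAP3, an enzyme of GPI anchor remodelling, at 31.7 and 36.4 in SKOV3 and 0.677 and 0.691 in ES2. Both overlap the span of ERBB2 on the opposite strand and may share reads with it, so their values are uncertain. NR1D1, a nuclear receptor of the circadian clock in the same window, was among the genes that moved, from 0.54 to 2.105.

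Around CDKN2A on chromosome 9, CDKN2A and CDKN2B, both inhibitors of cyclin-dependent kinases, were listed at 0 in both SKOV3 libraries. The adjacent MTAP, a methionine salvage enzyme, stood at 4.38 and 4.77 FPKM in SKOV3 and 11.2 and 9.60 in ES2.

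UQCRH, a hinge subunit of respiratory complex III on chromosome 1 (46303698 to 46316776), was among the 8 lowest line ratios, at 0.196 and 0.184 FPKM in SKOV3 and 91.8 and 103 in ES2. Its near-identical copy UQCRHL, to which reads could have been assigned, was at 0.0889 and 0.0270 FPKM in SKOV3 and 1.29 and 1.01 in ES2. The split of reads between UQCRH and UQCRHL was not tested. LRRC41, the adjacent gene, whose span overlaps that of RAD54L, was also low in SKOV3, at 1.19 and 0.314 FPKM against 17.0 and 17.3 in ES2, whereas RAD54L and NSUN4 nearby stood at 4.90 and 4.35 FPKM in treated SKOV3.

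By chromosome, coding genes had their lowest median line ratio on chromosome 7, -0.62 in controls and -0.59 under YY-15. The highest medians in controls were 0.54 on chromosome 19 and 0.47 on chromosome 21, and under YY-15 they were 0.50 and 0.60.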
